A study of Mus musculus with 9 samples.

Results

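The genes described here are 10 carriers of organic anions and urate, chosen by name: Slc22a6, Slc22a7, Slc22a8, Slc22a12, Slc22a13, Slco1a1, Slco4c1, Abcg2, Slc2a9 and Slc17a1. They are 10 of the 55385 gene IDs in the files, and all 10 were among the 13718 genes tested, those that reached 1 FPKM in 3 or more of the 9 libraries. Kidneys of C57BL/6 mice, labelled wild type in the series title, gave 9 bulk RNA libraries in 3 groups of 3, described as biological repeats. The groups were sham mice injected intraperitoneally with saline, mice taken 3 days after an intraperitoneal injection of cisplatin at 20 mg/kg, and mice taken 7 days after such an injection. The platinum compound cisplatin treats tumours and injures the kidney tubule. Age and sex were not given in the sources used here, and neither was the day on which sham kidneys were taken. The libraries were made from whole kidney, so fewer cells of a type and less RNA per cell cannot be told apart.

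Organic anion transporters work in the cells of the proximal tubule. On the blood side Slc22a6 (OAT1) and Slc22a8 (OAT3) take up drugs, toxins and urate in exchange for dicarboxylates, which sodium-coupled carriers return to the cell. On the urine side Slc22a12 (URAT1) exchanges luminal urate for carboxylates inside the cell, and Slc17a1 (NPT1) and the ATP-driven pump Abcg2 release urate and other anions, while Slc2a9 (GLUT9) is a facilitative urate carrier. The nuclear receptor HNF4 is known to act on the genes of several of these carriers, and the scaffold protein PDZK1 binds URAT1 and NPT1 at the apical membrane.

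Values are FPKM, which divides the fragments of a gene by its length and by the library's mapped fragments, so levels of different genes can be set side by side. Differences are of log2(FPKM + 1) with the standard error from limma, a linear model fitted over all tested genes, and a gene was called when its p-value, adjusted by the Benjamini-Hochberg method over the 13718 genes, was under 0.05. Each library summed to 421810 to 509537 FPKM, with 11647 to 13183 genes at 1 FPKM or more. The files hold no counts, so the depth behind a value is unknown and no counting interval can be given. Sham library 1 and day 3 library 1 had the lowest mean correlation with the other libraries of their group (0.955 and 0.946), and calls on the 10 genes that change without either are named. Kidney markers were present: the proximal tubule genes Lrp2 and Slc34a1 were at 37.68 to 100.01 and 393.54 to 1051.23 FPKM in sham. Across all tested genes the median difference at day 3 from sham was 0.25, and median-of-ratios scaling moved it by -0.22.

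On GRCm38, Slc22a8 (chr19:8591254-8611835, plus strand) and Slc22a6 (chr19:8618039-8628299, plus strand) lie next to each other with a gap of 6203 bases, and Slc22a12 (chr19:6535845-6543032, minus strand) is on the same chromosome. Slc22a7 is at chr17:46432183-46438457 (minus), Slc22a13 at chr9:119192974-119209098 (minus), Slc17a1 at chr13:23867750-23895730 (plus) and Slc2a9 at chr5:38349273-38503143 (minus). Slco1a1 is at chr6:141907282-141946962 (minus), Abcg2 at chr6:58584523-58695676 (plus) and Slco4c1 at chr1:96816270-96872171 (minus). Slc22a12 shares 682 exon bases with Nrxn2 on the other strand, and Slc22a13 shares 36.0% of its 50-base stretches with the pseudogene Slc22a13b-ps. Whether the authors counted by strand is not given in the sources used here; the values of Slc22a12 and Slc22a13 may hold reads of these partners. Nrxn2 stood at 0.81 to 2.95 FPKM over the 9 libraries and Slc22a13b-ps at 0.22 to 3.98 FPKM.

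The stretch of 250 bases before the transcription start was read from RefSeq's promoter table (GRCm38.p6) for 9 of the 10 genes, in 12 windows because Abcg2 has 3 starts and Slc17a1 has 2. The 2 motifs searched on both strands were CAAAGT (HNF4-type) and AGGTCA (nuclear receptor type), and none of the matches overlapped another. The windows shown are those of Slc22a12, with the CAAAGT match, of Slco1a1, with a pair of AGGTCA matches, and of Slc22a8 and Slco4c1, which held neither. Capitals mark the matches, and each sequence runs 5′ to 3′ on the strand of its gene.
Slc22a12 (chr19:6543071-6543320, minus strand): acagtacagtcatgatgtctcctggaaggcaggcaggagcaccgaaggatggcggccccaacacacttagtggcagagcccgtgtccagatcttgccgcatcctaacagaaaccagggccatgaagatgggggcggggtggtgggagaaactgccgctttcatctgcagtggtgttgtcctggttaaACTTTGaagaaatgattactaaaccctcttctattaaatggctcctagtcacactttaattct
Slco1a1 (chr6:141946963-141947212, minus strand): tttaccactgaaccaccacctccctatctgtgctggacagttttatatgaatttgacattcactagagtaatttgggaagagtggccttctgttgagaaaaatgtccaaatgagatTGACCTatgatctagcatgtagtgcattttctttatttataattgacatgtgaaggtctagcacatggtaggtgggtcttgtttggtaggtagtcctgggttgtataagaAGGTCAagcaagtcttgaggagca
Slc22a8 (chr19:8592932-8593181, plus strand): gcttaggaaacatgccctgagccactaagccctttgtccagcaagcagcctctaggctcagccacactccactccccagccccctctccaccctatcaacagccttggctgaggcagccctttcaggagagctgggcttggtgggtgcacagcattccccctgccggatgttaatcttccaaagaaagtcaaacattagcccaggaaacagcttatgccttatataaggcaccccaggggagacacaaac
Slco4c1 (chr1:96872172-96872421, minus strand): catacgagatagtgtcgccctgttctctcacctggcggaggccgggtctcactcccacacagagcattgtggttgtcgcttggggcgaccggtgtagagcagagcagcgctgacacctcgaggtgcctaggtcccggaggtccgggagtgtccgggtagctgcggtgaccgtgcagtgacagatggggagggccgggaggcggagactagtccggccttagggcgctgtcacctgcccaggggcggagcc

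The RefSeq start of Slc22a8 lies 1928 bases inside the GENCODE gene. CAAAGT, on the opposite strand, was at -63 to -58 from the start of Slc22a12, and 12.6% of the 32839 other promoters in the table held it. AGGTCA was found before 4 genes, Slco1a1, Slc2a9, Slc17a1 and Abcg2, and in 14% of the other promoters. Before Slco1a1 its matches stood at -134 to -129 on the opposite strand and at -24 to -19 on the strand of the gene. In all, 5 of 9 genes held at least 1 of the 2 motifs, against 24.6% of the other promoters, where each of those is a single window and 2 of the 9 genes have more than 1. Each match is a description of letters, not a binding site.

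**Figure D1:**
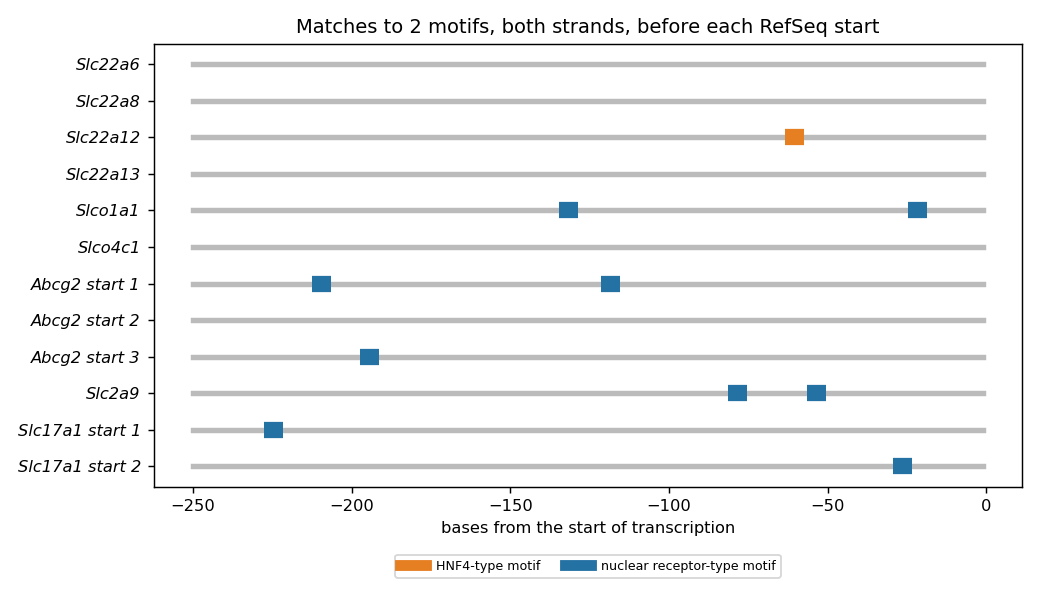
Matches to the 2 motifs in the 12 windows of 9 genes, plotted by distance in bases from the transcription start (grey line, 250 bases; coloured boxes, matches). The HNF4-type match lies before Slc22a12, and the windows of Slc22a6, Slc22a8, Slc22a13 and Slco4c1 and the second start of Abcg2 are empty.

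Most of these transporter genes were far lower at day 3. In day 3 kidneys 7 of the 10 were lower than in sham and 0 higher, where 20.6% of all tested genes were lower and 39.3% higher (28.8% and 29.8% under median-of-ratios scaling, which kept all 7 calls). The 7 were Slc22a6, Slc22a7, Slc22a8, Slc22a12, Slc22a13, Slc17a1 and Slco4c1, and in each of them every day 3 library lay under every sham library, as did 21.8% of all tested genes. The median difference of the 10 genes was -2.96, beside 0.25 over all tested genes. Summed over the 10, transporter FPKM came to 147.77, 140.03 and 178.03 at day 3, against 1050.16, 1233.21 and 1389.71 in sham. The 7 calls held under each alternative run, and without sham library 1 and day 3 library 1 the count was 8, the added gene being Abcg2.

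The uptake carriers of the blood side, and with them Slc22a7, come first. Slc22a6 stood at 159.31, 195.47 and 201.32 FPKM in sham kidneys, 8.82, 24.00 and 30.74 in day 3 kidneys, and 144.86, 100.76 and 149.61 in day 7 kidneys. Every day 3 library was low, library 1 the lowest, and the day 7 libraries lay between the other groups with no overlap. The day 3 mean was 21.2 ± 11.2 FPKM, against 185 ± 22.8 in sham (SD, n = 3 each), 8.75-fold lower by the means (difference -3.23 ± 0.39, limma adjusted p = 0.000154). Its neighbour Slc22a8 stood at 137.10, 178.63 and 139.42 FPKM in sham kidneys, 4.27, 12.46 and 12.69 in day 3 kidneys, and 86.23, 80.63 and 81.06 in day 7 kidneys. Again the 3 groups did not overlap, and the day 7 libraries were close together. Slc22a8 averaged 9.81 ± 4.80 FPKM at day 3 and 152 ± 23.3 in sham, 15.5-fold lower, which is the largest fold of means among the 10 (difference -3.94 ± 0.33, adjusted p = 2.77e-05). Slc22a7 (OAT2), a carrier of organic anions that the liver also makes, stood at 56.74, 38.08 and 76.08 FPKM in sham kidneys, 3.13, 8.18 and 7.67 in day 3 kidneys, and 48.95, 25.06 and 52.06 in day 7 kidneys. Its sham libraries were spread widely, and the day 7 values overlapped them. At day 3 Slc22a7 was 9.0-fold lower than in sham (6.33 ± 2.78 against 57.0 ± 19.0 FPKM; difference -3.02 ± 0.40, adjusted p = 0.000248).

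The urate carriers of the urine side followed. Slc22a12 was the most abundant of the 10 genes in sham and day 7 kidneys, at 435.25, 499.79 and 613.75 FPKM in sham kidneys, 15.77, 37.76 and 51.93 in day 3 kidneys, and 363.54, 279.80 and 389.44 in day 7 kidneys. No library of a group reached into another group. Day 3 kidneys had 35.2 ± 18.2 FPKM, against 516 ± 90.4 in sham, 14.7-fold lower (difference -3.98 ± 0.37, adjusted p = 4.54e-05). Slc22a13 (OAT10), a carrier of urate and nicotinate, stood at 43.36, 42.39 and 42.26 FPKM in sham kidneys, 5.27, 1.38 and 2.43 in day 3 kidneys, and 22.73, 23.18 and 27.39 in day 7 kidneys. Its sham libraries lay close together, and here day 3 library 1 was the highest of its group, not the lowest. Slc22a13 was 14.1-fold lower at day 3 than in sham (3.03 ± 2.01 against 42.7 ± 0.601 FPKM; difference -3.56 ± 0.29, adjusted p = 2.57e-05). The value of the pseudogene that shares its sequence, Slc22a13b-ps, fell as well (difference -1.56 ± 0.19, adjusted p = 0.000168). The pseudogene's low value may hold reads of Slc22a13, which was not tested.

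Slc17a1 stood at 182.19, 232.73 and 258.44 FPKM in sham kidneys, 25.43, 25.02 and 36.97 in day 3 kidneys, and 212.31, 202.85 and 226.17 in day 7 kidneys. Its day 3 libraries were all low and its day 7 libraries lay inside the sham range. At day 3 it was 7.70-fold lower (29.1 ± 6.78 against 224 ± 38.8 FPKM; difference -2.91 ± 0.18, adjusted p = 8.18e-06). Slc2a9 stood at 4.07, 2.84 and 2.43 FPKM in sham kidneys, 6.75, 3.23 and 3.06 in day 3 kidneys, and 2.93, 3.03 and 3.21 in day 7 kidneys. The groups overlapped at both times, and day 3 library 1 was the high one. Its day 3 difference from sham was 0.33 ± 0.25 (adjusted p = 0.279), from 4.35 ± 2.08 against 3.11 ± 0.853 FPKM.

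Abcg2 was not called at day 3. It stood at 21.08, 28.76 and 35.53 FPKM in sham kidneys, 77.03, 23.72 and 24.20 in day 3 kidneys, and 48.63, 51.53 and 57.99 in day 7 kidneys. At day 3, library 1 was above every sham library and libraries 2 and 3 were inside the sham range. The day 3 mean of 41.7 ± 30.6 FPKM, against 28.5 ± 7.23 in sham, gave a difference of 0.34 ± 0.41 (adjusted p = 0.496). That value rests on day 3 library 1: without it the difference was -0.21 (adjusted p = 0.395), and without it and sham library 1 it was -0.40 (adjusted p = 0.0371).

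The Slco carriers, organic anion transporting polypeptides, had a low member, Slco4c1, and a variable one, Slco1a1. Slco4c1, a basolateral carrier of digoxin, thyroid hormone and uremic toxins, stood at 4.33, 2.48 and 2.91 FPKM in sham kidneys, 0.84, 0.41 and 0.29 in day 3 kidneys, and 6.14, 8.41 and 6.44 in day 7 kidneys. The 3 groups did not overlap, with day 7 on top. Its day 3 level was 6.31-fold lower than in sham (0.513 ± 0.289 against 3.24 ± 0.968 FPKM; difference -1.48 ± 0.20, adjusted p = 0.000314), and at such low levels log2(FPKM + 1) understates a change. Slco1a1 (OATP1A1), an apical carrier of steroid conjugates and other anions that male mouse kidney makes under androgens, stood at 6.73, 12.04 and 17.57 FPKM in sham kidneys, 0.46, 3.87 and 8.05 in day 3 kidneys, and 39.26, 6.70 and 43.37 in day 7 kidneys. It was the most variable of the 10: the highest day 3 library was above the lowest sham library, and day 7 library 2 was at the level of that sham library. Its day 3 difference of -1.62 ± 0.81 was not called (adjusted p = 0.113; 4.13 ± 3.80 against 12.1 ± 5.42 FPKM).

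**Figure D2:**
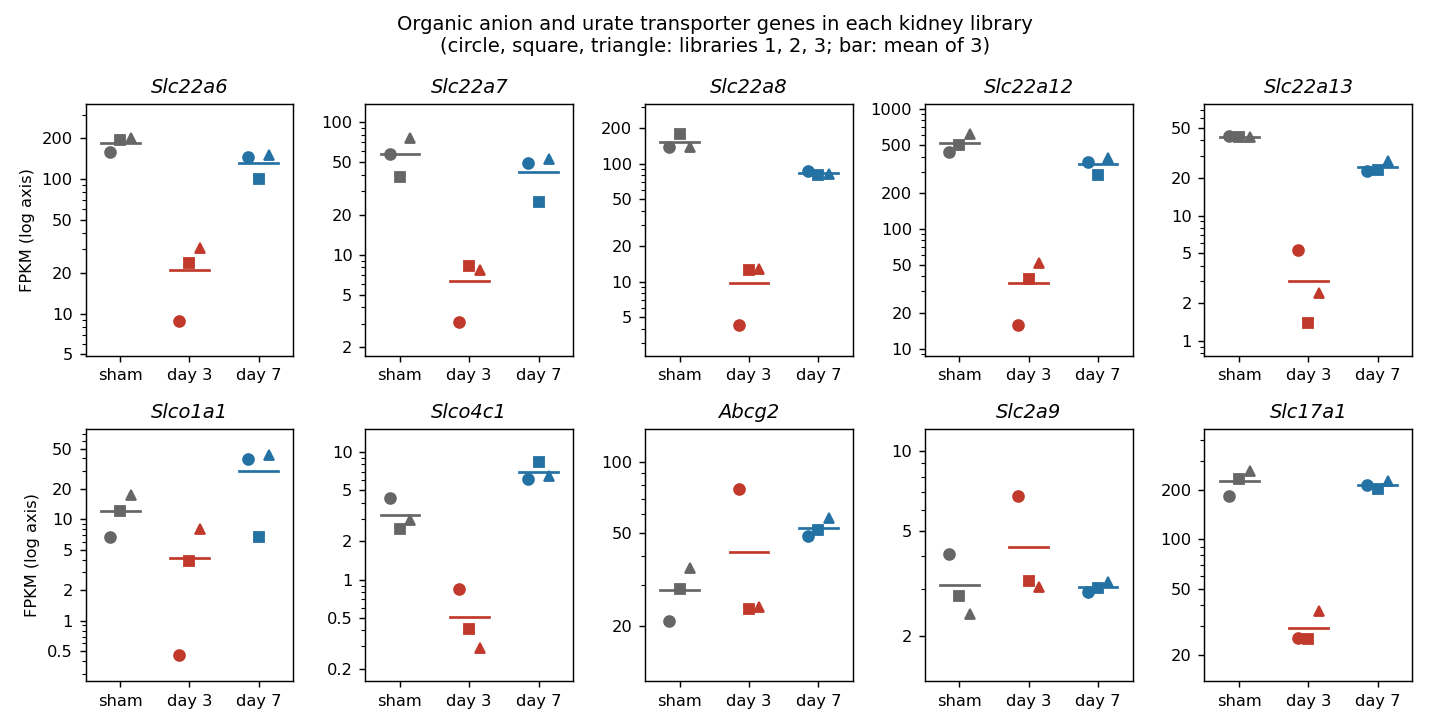
FPKM of the 10 genes in each library, on a log axis with its own range for each gene (circle, square and triangle, libraries 1, 2 and 3; bar, mean of 3). For 7 genes the day 3 points lie under all sham points, while Abcg2 and Slc2a9 have 1 high point at day 3, that of library 1, and Slco1a1 has 1 low point at day 7, that of library 2.

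Markers of androgen response and of liver were read beside Slco1a1 and Slc22a7. Kap, a proximal tubule gene that depends on androgens, had 28501.44, 32376.78 and 35637.29 FPKM in sham kidneys, 2395.75, 12502.03 and 16456.75 in day 3 kidneys, and 27454.60, 17595.72 and 25742.47 in day 7 kidneys. Its lowest library in each group was also the lowest for Slco1a1, but equally for Slc22a6, Slc22a8 and Slc22a12. Y-linked transcripts were present in all 9 libraries (Ddx3y at 1.66 to 8.01 FPKM) and Xist was at 0 to 0.13 FPKM. Because the liver makes Slc22a7 and Slco1a1 too, 5 hepatocyte genes were summed: 12.4 to 187.88 FPKM at day 3 and 85.98 to 118.47 at day 7, against 115.5 to 137.18 in sham, and Cyp3a11 was at 0 to 0.99 in all libraries. Of these, Alb reached 118.08 FPKM in day 3 library 2 and stood at 0.46 to 20.81 elsewhere. Alb and Apoa2 were not called at day 3 against sham (adjusted p = 0.318 and 0.677). Ttr, at 82.15 to 87.05 FPKM in sham and 6.52 to 24.87 at day 3, was lower (-2.81 ± 0.40, adjusted p = 0.000401). Serpina1c was lower too (-1.80 ± 0.61, adjusted p = 0.0302), a call that held in 14 of 19 alternatives. The part of androgen response or of liver RNA in the values of Slco1a1 and Slc22a7 was not tested.

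The order of levels changed at day 3. In sham, from the highest mean down, it was Slc22a12, Slc17a1, Slc22a6, Slc22a8, Slc22a7, Slc22a13, Abcg2, Slco1a1, Slco4c1 and Slc2a9. Neighbours whose libraries overlapped in sham were Slc17a1 with Slc22a6, Slc22a6 with Slc22a8, Slc22a7 with Slc22a13, and Slco4c1 with Slc2a9. At day 3 Abcg2 had the highest mean, but the libraries of each gene overlapped with those of the next in order down to Slc22a13, and Slco4c1, the lowest, was set apart from Slc22a13. The lead of Abcg2 came from library 1, where it made up 52.1% of the summed FPKM of the 10 genes and Slc22a12 made up 10.7%. In day 3 libraries 2 and 3 Slc22a12 was highest, with 27.0% and 29.2%. At day 7 the first 4 places were as in sham, Abcg2 came next, and Slc22a12 held 35.8% to 37.6% of the sum, against 40.5% to 44.2% in sham.

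At day 7 most of these genes had come back towards the sham level. Against day 3, 8 of the 10 were higher at day 7 and 0 lower, where 21.7% of all tested genes were higher and 33.7% lower (27.3% each under median-of-ratios scaling), with a median difference of 2.65 beside -0.16 over all genes. The differences from day 3 were 2.72 ± 0.39 for Slc22a6, 3.08 ± 0.33 for Slc22a8 and 2.57 ± 0.40 for Slc22a7 (limma adjusted p = 0.000455, 0.000109 and 0.000691). Among the urate carriers they were 3.39 ± 0.37 for Slc22a12, 2.77 ± 0.29 for Slc22a13 and 2.85 ± 0.18 for Slc17a1 (adjusted p = 0.00012, 0.000102 and 9.37e-06). Slco4c1 was 13.6-fold higher at day 7 than at day 3 (7.00 ± 1.23 against 0.513 ± 0.289 FPKM; difference 2.41 ± 0.20, adjusted p = 3.37e-05). In these 7 genes the day 7 libraries lay above all day 3 libraries, as did 25.2% of all tested genes. Slco1a1 was higher as well (difference 2.58 ± 0.81, adjusted p = 0.0239) with overlapping libraries, and its call was lost without day 3 library 1 (adjusted p = 0.074), day 7 library 1 (adjusted p = 0.0801) or day 7 library 3 (adjusted p = 0.0846), and without day 3 library 1 and sham library 1 (adjusted p = 0.0757). Abcg2 and Slc2a9 were not called (differences 0.55 ± 0.41 and -0.33 ± 0.25, adjusted p = 0.279 and 0.288), and without day 3 library 1 Abcg2 was higher at day 7 (difference 1.10, adjusted p = 0.00254). The count without day 3 library 1 and sham library 1 was also 8, with Abcg2 in the place of Slco1a1.

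Against sham, 1 of the 10 was called at day 7. Slco4c1 was higher (7.00 ± 1.23 against 3.24 ± 0.968 FPKM, 2.16-fold; difference 0.93 ± 0.20, adjusted p = 0.0109), and 0 were lower, where 19.3% of all tested genes were higher and 10.4% lower (16.4% and 16.2% under median-of-ratios scaling). That call was lost after removal of a trend with GC content and transcript length (difference 0.29, adjusted p = 0.393). Over all genes 856 were called after this correction, against 4075 in the main result. Below the threshold, every day 7 library of Slc22a6, Slc22a8, Slc22a12 and Slc22a13 lay under every sham library, as did 19.1% of all tested genes. Slc22a8 had 82.6 ± 3.12 FPKM at day 7, against 152 ± 23.3 in sham (difference -0.86 ± 0.33, adjusted p = 0.0815). Slc22a13 had 24.4 ± 2.57 FPKM, against 42.7 ± 0.601 in sham (difference -0.78 ± 0.29, adjusted p = 0.075). Day 7 means of 344 ± 57.3 FPKM for Slc22a12 and 132 ± 26.9 for Slc22a6 (differences -0.58 ± 0.37 and -0.50 ± 0.39, adjusted p = 0.27 and 0.359) stood against 516 ± 90.4 and 185 ± 22.8 in sham. All 3 day 7 libraries of Abcg2 were above sham, as in 29.5% of all tested genes (52.7 ± 4.79 against 28.5 ± 7.23 FPKM; difference 0.89 ± 0.41, adjusted p = 0.133).

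How many of the 10 were called at day 7 against sham changed between several alternatives, which are listed in the last section. Day 3 library 1 enters this comparison through the shared estimate of the spread. Without it 4 were called: Slc22a8 and Slc22a13 lower (adjusted p = 0.00248 and 0.00674), Abcg2 and Slco4c1 higher (adjusted p = 0.00871 for Abcg2). In that run 12.6% of all tested genes were lower and 21.8% higher. Slc22a12 was called lower at day 7 in 1 alternative (without sham library 1 and day 3 library 1, adjusted p = 0.0375), and Slc22a6 in 0. Nor was a call made under any alternative for Slc22a7 (42.0 ± 14.8 against 57.0 ± 19.0 FPKM, adjusted p = 0.432), Slc17a1 (214 ± 11.7 against 224 ± 38.8 FPKM, adjusted p = 0.842), Slco1a1 (29.8 ± 20.1 against 12.1 ± 5.42 FPKM, adjusted p = 0.404) and Slc2a9 (3.06 ± 0.142 against 3.11 ± 0.853 FPKM).

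**Figure D3:**
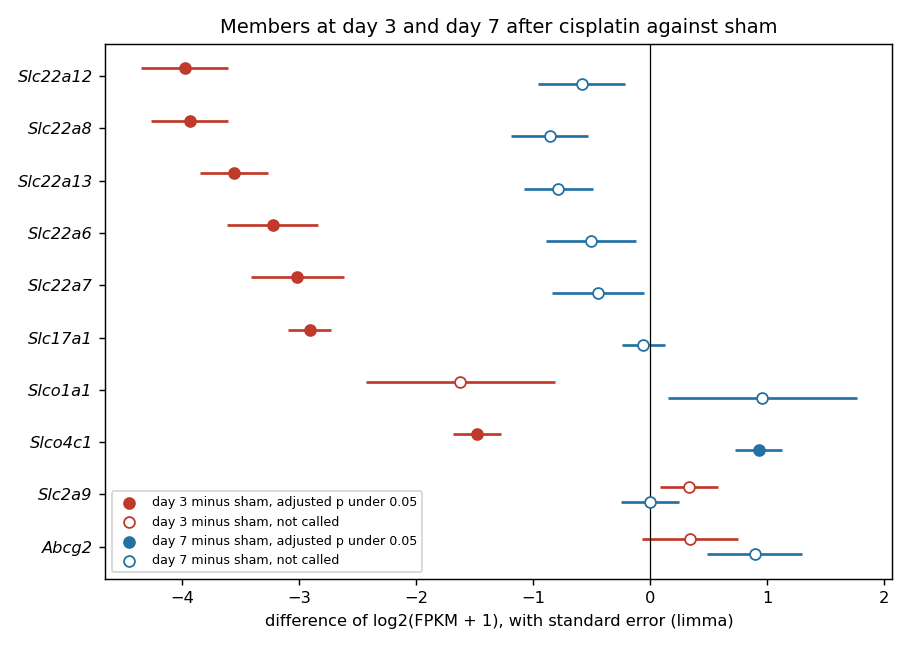
Difference of log2(FPKM + 1) from sham at day 3 (red) and day 7 (blue) for the 10 genes, with the standard error from limma; filled points have an adjusted p under 0.05. At day 3, 7 points are filled, all at -1.48 or below, and at day 7 the filled point is that of Slco4c1 at 0.93.

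The share of the day 3 fall that was regained differed between the genes, as a description with no test, since both differences use the day 3 libraries. On the log2 scale Slc22a6 had regained 84.4%, Slc22a7 85.3%, Slc22a12 85.3% and Slc17a1 98.1% of its fall by day 7. Slc22a8 and Slc22a13 had regained 78.2% and 77.9%, and Slco4c1 had passed its sham level with 163%. In FPKM the day 7 mean of Slc22a8 was 54.5% of the sham mean, that of Slc22a13 57.3%, that of Slc22a12 66.7%, that of Slc22a6 71.1% and that of Slc17a1 95.2%.

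The courses fell into a close set and several loners. By the root mean square difference of log2(FPKM + 1) over the 9 libraries, after each gene's mean was taken off, the nearest pairs among the 10 were Slc22a8 with Slc22a12 (0.26), Slc22a6 with Slc22a7 (0.324), and Slc22a6 with Slc22a12 and Slc22a8 (0.346 and 0.347). Slc22a13 was at least 0.516 from the other 9 genes, Slco4c1 at least 0.71 and Slco1a1 at least 0.913. Among 8132 other genes that averaged 5 FPKM or more in some group, the nearest to Slc22a6 were Aspdh (0.184), Eci3 (0.203) and Slc13a3 (0.221), the last being the sodium-dicarboxylate carrier of the blood side. Nearest to Slc22a8 were Susd2 (0.182), AI314278 (0.215) and Haao (0.221), and nearest to Slc22a12 were AI314278 (0.239), Susd2 (0.251) and Dao (0.267), which encodes D-amino acid oxidase. Slc22a7 was nearest to Sardh (0.261), Serpina1d (0.316) and Bhmt2 (0.341), and Slc22a13 to Pth1r, the parathyroid hormone receptor gene (0.197), Pgam2 (0.266) and 0610005C13Rik (0.308). Slc17a1 ran with Slc2a5, a fructose carrier (0.11), and Slc3a1, a subunit of the cystine carrier (0.132). The nearest to Slco4c1 were Col4a3 (0.147), Avpr1a (0.235) and Col4a4 (0.255), of which Col4a3 and Col4a4 encode collagen chains of the glomerular basement membrane. Abcg2 was nearest to Nt5e (0.196), St8sia6 (0.206) and Prkaa2 (0.235), and Slc2a9 to Mtmr11 (0.0968), Ptgs1 (0.116) and Slc25a17 (0.125). Slco1a1 had no gene nearer than Gm6300 (0.445), followed by Acsm3 (0.533) and Akr1c14 (0.617).

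**Figure D4:**
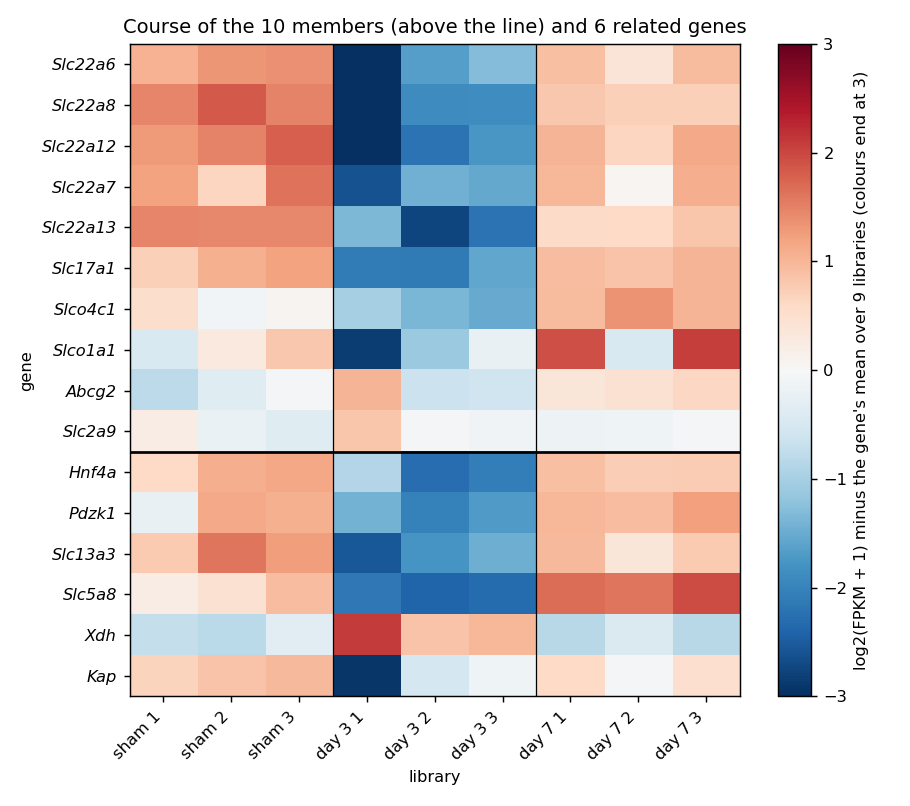
Course of the 10 genes (above the line) and 6 related genes across the 9 libraries, as log2(FPKM + 1) minus each gene's mean, with colours ending at 3. The first 7 rows are blue in all 3 day 3 libraries, Abcg2 and Slc2a9 are red in day 3 library 1, and Slco1a1 is red in day 7 libraries 1 and 3.

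Carriers and regulators that work with these genes were read from lists. Their counts are to be set beside the shares of all tested genes. Those were 20.6% lower and 39.3% higher at day 3 than in sham, and 10.4% lower and 19.3% higher at day 7. Of the sodium-coupled carboxylate carriers, which supply the anions that OAT1, OAT3 and URAT1 exchange, 4 of 4 were lower at day 3 than in sham. Slc13a3 stood at 85.71, 151.72 and 118.09 FPKM in sham kidneys, 7.66, 13.72 and 17.09 in day 3 kidneys, and 97.69, 62.98 and 85.85 in day 7 kidneys. It was low in each day 3 library and overlapped sham at day 7 (day 3 difference -3.14 ± 0.31, adjusted p = 5.53e-05). Slc13a2 of the apical side, which takes up citrate and other dicarboxylates, and Slc5a8, which takes up lactate and other monocarboxylates, were also lower at day 3 (differences -3.77 ± 0.21 and -2.82 ± 0.19, adjusted p = 4.79e-06 and 9.85e-06). At day 7 the list parted: Slc5a8 and Slc5a12, another lactate carrier, were higher than in sham (1.21 ± 0.19 and 1.76 ± 0.35, adjusted p = 0.00293 and 0.00792) and Slc13a2 was lower (-0.67 ± 0.21, adjusted p = 0.0383). After the GC content and length correction these 3 day 7 calls were lost (adjusted p = 0.0778, 0.0556 and 0.378). Slc5a8 and Slc5a12 were called in 18 of 19 alternatives and Slc13a2 in 8; single libraries whose removal ended the call on Slc13a2 were sham 1 and 2, day 3 library 2, and day 7 libraries 1 and 2 (adjusted p = 0.091, 0.0826, 0.0559, 0.11 and 0.116).

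Among the genes of regulators and scaffolds 5 of 6 were lower at day 3 than in sham and 0 higher, and 0 of 6 were called at day 7 against sham (2 lower without sham library 1 and day 3 library 1). Hnf4a stood at 131.44, 186.43 and 194.80 FPKM in sham kidneys, 47.07, 17.08 and 20.10 in day 3 kidneys, and 164.39, 145.45 and 147.80 in day 7 kidneys. Day 3 library 1 was the highest of its group for Hnf4a, whereas it was the lowest for Slc22a6, Slc22a7, Slc22a8 and Slc22a12 (day 3 difference -2.68 ± 0.33, adjusted p = 0.000186). Pdzk1 was at 46.1 FPKM at day 3, against 259 in sham (-2.37 ± 0.34, adjusted p = 0.000403), and at 314 at day 7. Whether these regulators had a part in the transporter values was not tested.

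Other families of anion carriers went different ways. Of the other Slc22 organic anion genes 8 of 9 listed names matched and 6 were expressed enough to be tested, and 6 of 6 were lower at day 3 than in sham (median difference -2.49), led by Slc22a28 (-2.94 ± 0.79, adjusted p = 0.0111), Slc22a30 (-2.75 ± 0.65, adjusted p = 0.00574) and Slc22a22 (-2.51 ± 0.63, adjusted p = 0.00783). Slc22a29 was the 1 of these 6 called at day 7 against sham, at 1.40, 3.24 and 2.33 FPKM at day 7, against 0.34, 0.81 and 1.20 in sham (0.89 ± 0.23, adjusted p = 0.0219). Its call held in 11 of 18 alternatives and was lost after the GC content and length correction (adjusted p = 0.251) and without sham library 1, sham library 2, day 7 library 2 or day 7 library 3 (adjusted p = 0.0591, 0.0583, 0.07 and 0.064). Of 4 tested Slco genes 2 were lower at day 3 and 1 higher: Slco1a6 (-2.10 ± 0.20, adjusted p = 5.06e-05), Slco3a1 (-1.80 ± 0.24, adjusted p = 0.000243) and the prostaglandin carrier Slco2a1 (1.36 ± 0.21, adjusted p = 0.000522). Slc17a3 (NPT4), the neighbour of Slc17a1 in the same family, was lower at day 3 (-2.78 ± 0.37, adjusted p = 0.000279), and Slc17a5, which encodes the lysosomal carrier sialin, was not called (0.14 ± 0.26, adjusted p = 0.668).

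The Abcc pumps, ATP-driven exporters of anion conjugates, showed no common direction at day 3, with 2 of 7 lower, 3 higher and a median difference of -0.05; median-of-ratios scaling turned the counts to 3 lower and 2 higher. Abcc3 rose (1.76 ± 0.23, adjusted p = 0.00022) and Abcc6 fell (-1.17 ± 0.11, adjusted p = 5.11e-05). Abcc4 (MRP4), a urate exporter of the apical side, stood at 18.99, 7.26 and 8.04 FPKM at day 3, against 5.62, 4.90 and 3.90 in sham (0.99 ± 0.34, adjusted p = 0.0329). Its high library at day 3 was library 1, as for Abcg2, and its call was lost without that library (adjusted p = 0.069) and in 6 other alternatives (highest adjusted p = 0.0958). Abcc2 (MRP2) was at 24.87 to 42.61 FPKM at day 3, against 29.11 to 35.22 in sham (-0.05 ± 0.20, adjusted p = 0.851). At day 7, 0 of 7 were called against sham. Without day 3 library 1 Abcc2 was higher (0.38, adjusted p = 0.0347), its 1 call at day 7 against sham in 19 alternatives. Without that library and sham library 1 the count was 1 of 7, and the gene was not Abcc2.

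Enzymes of purine salvage, purine breakdown and urate formation were mostly higher: 7 of 8 tested genes were higher at day 3 than in sham and 0 lower, with a median difference of 1.14 (6 of 8 under median-of-ratios scaling). Of all tested genes 39.3% were higher and 20.6% lower, with a median of 0.25 (29.8% higher under that scaling). Xdh, whose enzyme xanthine dehydrogenase forms urate, stood at 21.30, 8.37 and 9.42 FPKM at day 3, against 2.20, 1.98 and 3.13 in sham (1.93 ± 0.31, adjusted p = 0.000744). Hprt, the purine salvage enzyme gene, had 165.2 FPKM at day 3, against 41.1 in sham (1.98 ± 0.09, adjusted p = 2.63e-06), and the guanine deaminase gene Gda rose too (1.56 ± 0.11, adjusted p = 1.24e-05). Hprt returns purine bases to nucleotides, so that they do not become urate. Against day 3, 8 of 8 of these enzyme genes were lower at day 7, as were 33.7% of all tested genes. At day 7 against sham Hprt was higher (0.71 ± 0.09, adjusted p = 0.00186), also after the GC content and length correction (adjusted p = 0.0375). The calls on Gda, higher (0.37 ± 0.11, adjusted p = 0.0332), and on Aprt, another salvage enzyme gene, lower (-0.70 ± 0.18, adjusted p = 0.0187), were lost after that correction (adjusted p = 0.346 and 0.862). Gda was called in 7 of 18 alternatives, and the call was lost with the replicate block (adjusted p = 0.0507), when scaled by median of ratios (0.0737), and without sham library 1 or 2, day 3 library 2, or day 7 library 1 or 3 (adjusted p = 0.0743, 0.105, 0.0504, 0.117 and 0.0921). Aprt was called in 15 of 19, not without sham library 2 or day 7 library 2 or 3 (adjusted p = 0.0564, 0.0565 and 0.0676).

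Markers of the tubule were lower at day 3 beside the transporter genes. Of 12 proximal tubule markers 12 were lower at day 3 than in sham, with a median difference of -2.77, and their summed FPKM was 2902.84 to 17167.7 at day 3, against 31238.6 to 41356.2 in sham. Markers of other segments went with them: thick ascending limb 5 of 5 lower, distal convoluted tubule 3 of 4 and collecting duct 4 of 6, with 0 higher in each. Among podocyte markers 1 of 5 was lower and 0 higher, and among endothelial markers 1 of 5 was lower, Emcn, and 1 higher, Flt1. Of all tested genes 20.6% were lower and 39.3% higher at day 3, so the podocyte and endothelial counts lay close to or under those shares. Without sham library 1 and day 3 library 1 these counts turned to 0 lower and 1 higher for podocytes, and 0 lower and 2 higher for endothelium. The call on Emcn held in 13 of 19 alternatives and was lost without sham library 1 (adjusted p = 0.0708), sham library 2 (adjusted p = 0.061), day 3 library 1 (adjusted p = 0.0683) or day 3 library 2 (adjusted p = 0.051). Of 5 tubule injury genes, among them Lcn2 and Krt20, 5 were higher (4 without sham library 1 and day 3 library 1). Of the leukocyte markers only 2 of 6 were expressed enough to be tested; Csf1r was lower and S100a8 higher. At day 7 against sham 0 of 12 proximal tubule markers were lower and 2 higher, Slc5a12 and Gatm, with a median of 0.0051 (4 lower and 2 higher without sham library 1 and day 3 library 1; 0 lower and 1 higher under median-of-ratios scaling; 0 and 0 after the GC content and length correction). Of all tested genes 10.4% were lower and 19.3% higher at day 7 than in sham. Gatm was called at day 7 in 7 of 19 alternatives and at day 3, where it was lower, in 10 of 19, in both cases not without day 3 library 1 (adjusted p = 0.0606 and 0.0602). The part of tubule cell number in the transporter values was not tested. Slc22a2, an organic cation carrier of the same cells, fell by 4.07 on the log2 scale, while among the 8 carriers of organic cations and carnitine 3 were lower and 3 higher.

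**Figure D5:**
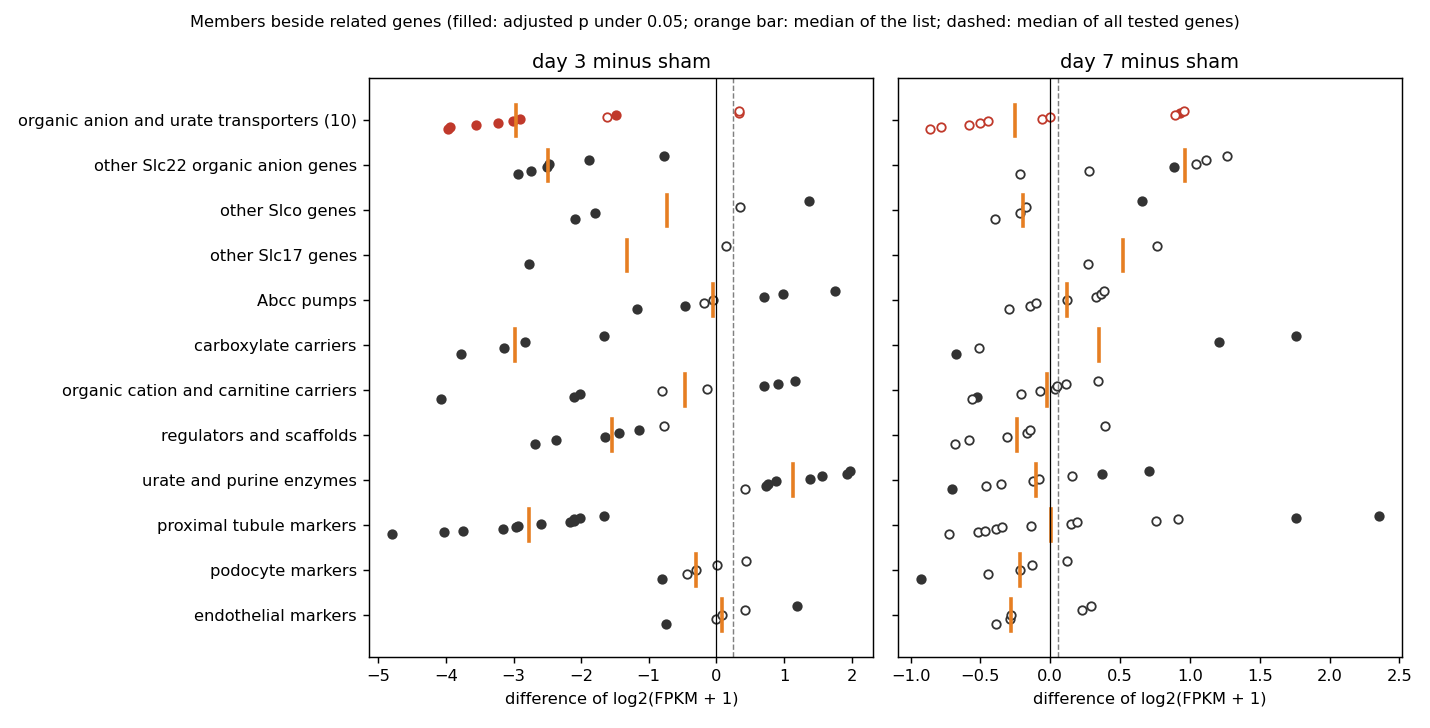
Differences of log2(FPKM + 1) from sham at day 3 (left) and day 7 (right) for the 10 genes (red) and 11 lists of related or marker genes, 1 point a tested gene, filled at an adjusted p under 0.05; orange bars mark list medians and the dashed line the median of all tested genes, 0.25 and 0.06. At day 3 the list of 10 genes, the other Slc22 genes, the carboxylate carriers and the proximal tubule markers have medians between -2.98 and -2.49, and the urate and purine enzymes lie on the other side at 1.14.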

How the data were processed

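Each library was deposited as FPKM per gene, a unit that the authors computed, per the file headers, with 2 decimals. HISAT, StringTie, FastQC 0.10.1 and GRCm38 are named in the submitters' processing notes, with no role or order. Per the labels' protocols, total RNA with an integrity number above 7.0 went into a directional kit. FPKM is relative to the library total, so a rise of abundant transcripts lowers the other values. A listed 0 may be a failed estimate.

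Symbols, coordinates and exon overlaps came from GENCODE M21. Values were taken as log2(FPKM + 1). A limma model (version 3.58.1, R 4.3.3) with 3 group means was fitted to all 9 libraries and 13718 genes with an empirical Bayes trend, and tests were two-sided. Errors of means are SD. The script was tested on simulated data.

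The 10 genes, the 18 lists (115 genes, 114 matched) and the tests were chosen with earlier results of these data known. Named genes were the 10, from each list up to 3 largest called day 3 changes and calls at day 7, the 3 genes nearest in course to each of the 10, and fixed regulators and checks; some genes that the rule names are given as counts or are not reported here. Slc22a13b-ps, Nrxn2, Abcc2, Slc17a5, Alb and Cyp3a11 were named after their values were seen. As alternatives, the fit was run with a pseudocount of 0.1, without a filter, at 5 FPKM, with other scalings, robust variance, 6 libraries alone, the replicate block, each library left out, and, added after seeing the data, a GC content and length correction and 2 libraries left out.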

Additional observations from a re-analysis of the deposited data

Results flagged for a closer look

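For 8 of the 10 transporter genes, and for 55.4% of all tested genes, the response to cisplatin differed between day 3 and day 7. It was tested as the day 7 minus day 3 difference of log2(FPKM + 1), in which the shared sham libraries cancel. These differences were 2.72 for Slc22a6, 2.57 for Slc22a7, 3.08 for Slc22a8 and 3.39 for Slc22a12. They were 2.77 for Slc22a13, 2.85 for Slc17a1, 2.41 for Slco4c1 and 2.58 for Slco1a1. Each of the 8 was higher at day 7, as were 21.7% of all tested genes, while 33.7% were lower. For Slco1a1 the call depended on single libraries.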

How the results depend on the processing

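Under the alternatives the 7 calls at day 3 against sham and the 8 at day 7 against day 3 stayed within 1.5 times in number, and 7 genes kept both calls in each. The number of the 10 genes called at day 7 against sham was 1. It became 2 under median-of-ratios scaling, 4 with the 6 libraries alone and 0 after the GC content and length correction. It was 5 without sham library 1 and day 3 library 1, and 1 to 4 when each library was left out. Over all tested genes 10.8% were lower and 19.7% higher with the 6 libraries alone, and 11.7% and 22.7% without those 2 libraries. The cause of these changes in number was not tested, except that day 3 library 1 enters the shared spread. Some differences near 0 changed sign. Abcg2 at day 3 against sham, 0.34 in the main result, was -0.21 to 0.62 when each library was left out (-0.21 without day 3 library 1), -0.080 after the correction and -0.40 without both libraries. Slc22a7 at day 7 against sham was 0.0026 after the correction, and Slc17a1 was 0.17 with quantile normalization and 0.052 without sham library 3 (-0.20 to 0.052 over left-out libraries). Slc2a9 at day 7 against sham was 0.0058 with a pseudocount of 0.1, 0.16 without sham library 1 (and without both libraries), 0.022 and 0.0037 without day 7 library 1 or 2 (-0.12 to 0.16 over left-out libraries), and 0.062 after the correction; it was not tested at a filter of 5 FPKM. Slco1a1 at day 7 against day 3 also lost its call with no filter (adjusted p = 0.0514). Over all genes, calls at day 7 against sham numbered 4075, but 856 after the correction, 2470 without sham library 2, and 2696, 2699 and 2652 without day 7 library 1, 2 or 3. A filter of 5 FPKM, which leaves 7692 genes, gave 5104 calls at day 3 against sham (8214 in the main result) and 4973 at day 7 against day 3 (7603). The main fit did not pair libraries by replicate number. Deviations from the group mean correlated at -0.0543 to 0.238 in 9 pairs with the same number and -0.28 to 0.115 in 18 others. The highest correlation was in a pair with the same number, so these values do not show that the numbers carry no pairing. With the replicate block 7, 1 and 8 of the 10 genes were called, as without it. With 3 libraries a group and depth unknown, a missed call does not show that levels were alike.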
